A study of Mus musculus with 2 samples.

Results

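Bile transporters carry bile acids, phospholipids, sterols, bilirubin and drugs across the membranes of hepatocytes. The 10 examined here were the basolateral uptake carrier Slc10a1, the canalicular transporters Abcb11, Abcb4, Abcc2, Abcb1a, Abcg5, Abcg8 and Atp8b1, and the basolateral overflow pumps Abcc3 and Abcc4. They were chosen by name among the 30153 genes of the array, and every probe of each gene was read, 12 probes in all. MHs came from healthy livers, where they were collected by centrifugation followed by a Percoll gradient. Sox9+EpCAM- cells came from livers injured by a diet containing DDC and were sorted by FACS as GFP+EpCAM- cells. Per the methods, both livers were of Sox9-EGFP mice, in which a transgene expresses GFP where Sox9 is active. The labels call the sorted cells biphenotypic hepatocytes and give the sex as male for both samples. The genetic background, the age and the number of mice behind each array are not given in the sources used here. A diet of 2 weeks is stated for cells used in quantitative PCR of the same comparison, and whether it holds for the arrays is not stated.

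Total RNA of each sample was labelled with Cy3 and hybridised to 1 array, and both arrays lay on 1 slide read in 1 scan. With 1 array per group no test was possible, no value has a replicate error, and every difference below is that between these arrays. Diet, isolation method, sort and sample cannot be told apart. The processed intensity of a spot was divided by the 75th percentile of the intensities of its array, which was 741 for MHs and 1110 for Sox9+EpCAM- cells, and the difference is the log2 value of Sox9+EpCAM- cells minus that of MHs. An intensity can therefore be the same or somewhat higher in Sox9+EpCAM- cells while the difference is below 0. The median difference of the 21875 genes with a value was -0.12. Each bile transporter probe was printed as 1 spot, so the error after ± is the one that the scanner software assigned to that spot, and it came to 0.20 or 0.21 on the log2 scale for a difference. The median SD between spots of a repeatedly printed probe was 0.08 on each array, and no spot was saturated.

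The arrays did not both match their label for sex. Xist, the RNA that silences an X chromosome in female cells, had an intensity of 1940 in MHs and 16.1 in Sox9+EpCAM- cells, where it was not well above background, a log2 difference of at most -7.30. The Y-linked genes Ddx3y, Kdm5d, Eif2s3y and Uty lay between 6.03 and 8.50 in MHs, none well above background, and between 140 and 642 in Sox9+EpCAM- cells, with differences of at least 3.95, 3.56, 1.75 and 2.27. Sex as measured by these genes thus also differs between the arrays, and its part in the results was not tested. An exchange of both samples would turn the sign of every difference. Sox9, whose reporter the sort used, was well above background only on the array labelled Sox9+EpCAM-. Spp1 was 6.93 higher there on the log2 scale and Cyp1a2, an enzyme of mature hepatocytes, was at -8.36. Epcam, against which the cells were sorted, was higher there too, at 2770 against 139 in MHs. The labels were kept. Cell type markers were read next. Alb, the main plasma protein made by hepatocytes, was at 207000 and 170000, a difference of -0.87. All 17 enzymes and all 16 secreted proteins listed as hepatocyte markers were well above background on both arrays. The enzymes had a median of -1.96, from -8.58 for Cyp3a11, on a probe that is not specific to it, to -0.35 for Cyp2d10, and the secreted proteins a median of -0.69, from -1.51 for Apoc3 to 0.65 for Hp.

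Hepatocytes are polarised: their basolateral membrane faces the blood and their apical membrane lines the bile canaliculus. Bile acids returning from the intestine are taken up from the blood, pumped into the canaliculus against a steep gradient, and mixed there with phospholipid and cholesterol, which shield membranes from their detergent action. When export into bile is impaired, overflow pumps of the basolateral membrane can return bile acids and conjugates to the blood.

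Sequences are printed where a reading of the results turns on them. Slc10a1 has a pair of probes, and their letters bear on which of them reports on this gene alone. The probe that begins at base 598 of the transcript lies at chr12:82061470-82061529 (mm9, minus strand). It has no stop codon in 2 of its 3 forward frames, and its array entry lists transcripts of 1 gene.
Slc10a1 probe: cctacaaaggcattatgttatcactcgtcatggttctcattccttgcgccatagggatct
The other probe of Slc10a1, at chr12:82056539-82056598 on the minus strand, is entered for transcripts of 4 genes, which are Slc10a1, 4930402H24Rik, Med16 and Spc24. Bases 1 to 25 of it, shown next, match 9 probes of other genes with at most 3 mismatches on either strand. These letters are of the kind found in B1 elements, a short repeat present all over the mouse genome.
Slc10a1 repeat-like stretch: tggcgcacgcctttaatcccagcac
Over its whole length this probe had such 25-base matches with 22 probes of 22 other genes, among 39429 probes searched. Those 22 probes were all well above background on both arrays, with a median difference of -0.20 and quartiles of -0.32 and 0.03. The 11 other bile transporter probes had no such match. The main probe of Abcb4 is printed because this transporter differed in the opposite direction to the bile salt pump. It begins at base 3956 of the transcript, at chr5:8959108-8959167 (mm9, plus strand), and has no stop codon in any of the 3 forward frames.
Abcb4 probe: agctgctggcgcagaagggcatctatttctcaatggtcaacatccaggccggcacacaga

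Promoter windows ran from 250 bases before to 50 bases after the start of a transcript. The set of RefSeq windows used here (GRCm38.p6) held 11 windows for 8 of the 10 transporters and none for Abcc3 and Atp8b1. Abcg5 and Abcg8 are read in opposite directions from starts at positions 84683011 and 84683121 of chromosome 17, only 110 bases apart, and their levels differed in the same direction. The 109 bases between both starts are shown for this reason, at chr17:84683012-84683120 (GRCm38.p6) in the direction of Abcg8, with TTATCT in capitals.
Between Abcg5 and Abcg8: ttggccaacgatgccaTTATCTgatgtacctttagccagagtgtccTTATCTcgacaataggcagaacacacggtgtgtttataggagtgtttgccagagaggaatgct
TTATCT is the reverse complement of the core that GATA factors bind. It was found on either strand in 11.2% of 32851 promoter windows, so its presence is common. The windows of Abcg5 and Abcg8 overlap, and the same letters are counted in both. The 100 bases before the start of Abcb11 are shown because they held an inverted repeat of the kind that the bile acid receptor FXR is known to bind, in capitals, at chr2:69342617-69342716 (GRCm38.p6, minus strand).
Abcb11 promoter: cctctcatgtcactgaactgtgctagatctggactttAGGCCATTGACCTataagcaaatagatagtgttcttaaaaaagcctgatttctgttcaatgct
The repeat lies 63 to 51 bases before the start and has 1 mismatch to the motif searched, the inverted repeat IR-1, which is made of AGGTCA, any base and TGACCT. With at most 1 mismatch, 27 windows of the 32851 held it (0.0822%), and Abcb11 was the only one of the 8 transporters among them. The element TGACNNNGC, searched on both strands as the core of the antioxidant response element, was in windows of Abcb1a, Abcc2 and Abcc4, and in 12.4% of all windows. A match to the HNF1 motif (GTTAAT, any base and ATTAAC, at most 2 mismatches) was found 75 to 63 bases before the start of Abcc2, in a search that gave 1.36% of all windows. These matches describe letters, and no binding was measured.

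Of the 10 transporters, 3 differed at least 2-fold upwards in Sox9+EpCAM- cells (Abcb4, Abcc3 and Abcc4), where 15.2% of all genes with a value did. At least 2-fold lower were 4 (Abcb11, Abcb1a, Abcg5 and Abcg8), where 17.9% of all genes were. At 4-fold, Abcc4 was higher by a bound, against 5.98% of all genes, and Abcg5 was lower, against 5.96%. The share of transporters past 4-fold was 1 of 10 in each direction, too few to read against these backgrounds. Within 2-fold were Slc10a1, Abcc2 and Atp8b1. The median difference of the 10 was -0.55, and -0.73 when Slc10a1 was read by its specific probe. From Abcg5 to Abcc4 they spanned at least 4.27 on the log2 scale.

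**Figure D1:**
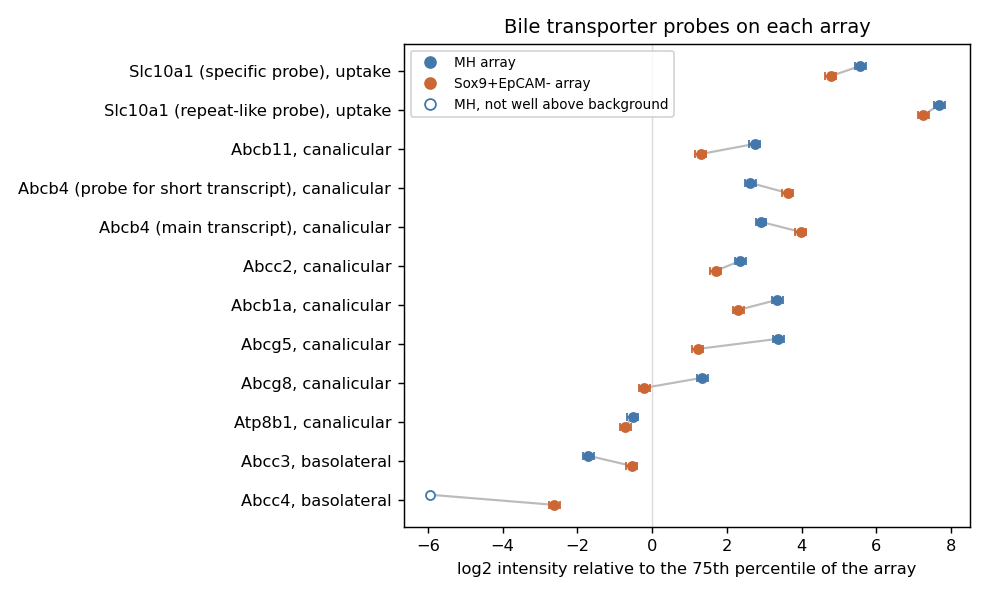
Level of each bile transporter probe on the MH array (blue) and on the Sox9+EpCAM- array (orange), as log2 of the intensity over the 75th percentile of the array; bars are the error that the scanner software gave each spot, and the open circle marks the probe of Abcc4 that was not well above background in MHs. Both probes of Abcb4 and those of Abcc3 and Abcc4 lie further right in orange and all others further left; levels of different probes are not comparable with each other.

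Slc10a1 (NTCP), the sodium-dependent carrier that takes bile acids up from the blood, had an intensity of 35300 ± 3530 in MHs and 30600 ± 3060 in Sox9+EpCAM- cells on its specific probe. This is 1.73-fold lower, a log2 difference of -0.79, and 23.4% of genes had a lower value. Its repeat-like probe, which stood for the gene by the rule of the brightest probe, was at 153000 ± 15300 and 170000 ± 17000, a difference of -0.43. Since that probe is entered for 4 genes, it is no second reading of Slc10a1, and under quantile normalization it gave 0.17. The specific probe was well above background in both samples, and over the background corrections and scalings run its difference ranged from -0.97 to -0.25, the latter under quantile normalization.

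Abcb11 (BSEP) is the canalicular pump that exports bile acids. Its intensity was 4970 ± 497 in MHs and 2740 ± 274 in Sox9+EpCAM- cells, 2.72-fold lower (log2 difference -1.44), on a probe at chr2:69076365-69076424. Abcb4 (MDR2) moves phosphatidylcholine to the canalicular side of the membrane, and it was higher in Sox9+EpCAM- cells, with 17500 ± 1750 against 5590 ± 559 in MHs, 2.09-fold higher (log2 difference 1.06). The second probe of Abcb4, at chr5:8899682-8899741 and entered for a short transcript, was at 4580 ± 458 and 13700 ± 1370 (log2 difference 0.998). Both probes of Abcb4 thus gave the same direction and nearly the same size. For the 2965 genes with exactly 2 specific probes above background on both arrays, the median gap between the probes was 0.69 and the 90th percentile 2.17. The differences of Abcb4 and Abcb11 lay 2.51 apart on the log2 scale, and 85.8% of genes were lower than the former while 10.8% were lower than the latter.

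Exporters of conjugates and drugs in the canalicular membrane differed to unequal degrees. Abcc2 (MRP2), which exports conjugated bilirubin, was at 3800 ± 380 in MHs and 3600 ± 360 in Sox9+EpCAM- cells on a probe at chr19:43912079-43912138, 1.58-fold lower (log2 difference -0.66). Abcb1a, a P-glycoprotein that exports many drugs, was at 7560 ± 756 and 5500 ± 550 on a probe at chr5:8748075-8748134, 2.06-fold lower (log2 difference -1.04). Its close paralogue Abcb1b was at 1610 and 1980, a difference of -0.28. Abcg2, another canalicular exporter of drugs and conjugates, was at 3480 and 4750, a difference of -0.13, about the median of all genes.

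Abcg5 and Abcg8 are half-transporters that join to export cholesterol and plant sterols into bile. Abcg5 had an intensity of 7730 ± 773 in MHs and 2590 ± 259 in Sox9+EpCAM- cells on a probe at chr17:85057593-85057652. At 4.47-fold lower, with a log2 difference of -2.16, it had the lowest difference of the 10, and 5.09% of all genes were lower still. Abcg8 was at 1880 ± 189 and 961 ± 96.2 on a probe at chr17:85098745-85098804, 2.93-fold lower (log2 difference -1.55). Both genes of the pair printed above were therefore lower together, and the difference of Abcg5 minus that of Abcg8 was -0.61.

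Atp8b1 (FIC1) is a P4-ATPase that flips phospholipids to the inner leaflet of the canalicular membrane. It was at 515 ± 52.0 in MHs and 676 ± 67.7 in Sox9+EpCAM- cells. Its difference was -0.19, with a spot error of 0.21, and ranged from -0.37 to -0.19 over the settings run.

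The overflow pumps were both higher in Sox9+EpCAM- cells. Abcc3 (MRP3), which exports conjugates to the blood, was at 227 ± 23.6 and 757 ± 75.8 on a probe at chr11:94204612-94204671, 2.23-fold (log2 difference 1.15), and 86.9% of genes had a lower value. Abcc4 (MRP4), an exporter of bile acids together with glutathione and of cyclic nucleotides, was at 11.9 ± 6.75 in MHs, not well above background. In Sox9+EpCAM- cells it reached 180 ± 18.5, on a probe at chr14:118882104-118882163. Since the lowest intensity accepted as well above background in MHs was 27.8, Abcc4 was at least 4.32-fold higher, a log2 difference of at least 2.11. With normexp background correction, which raises low signals by an offset, the bound became 0.86, and the plain difference without a bound was 3.34, so its size is known only loosely.

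**Figure D2:**
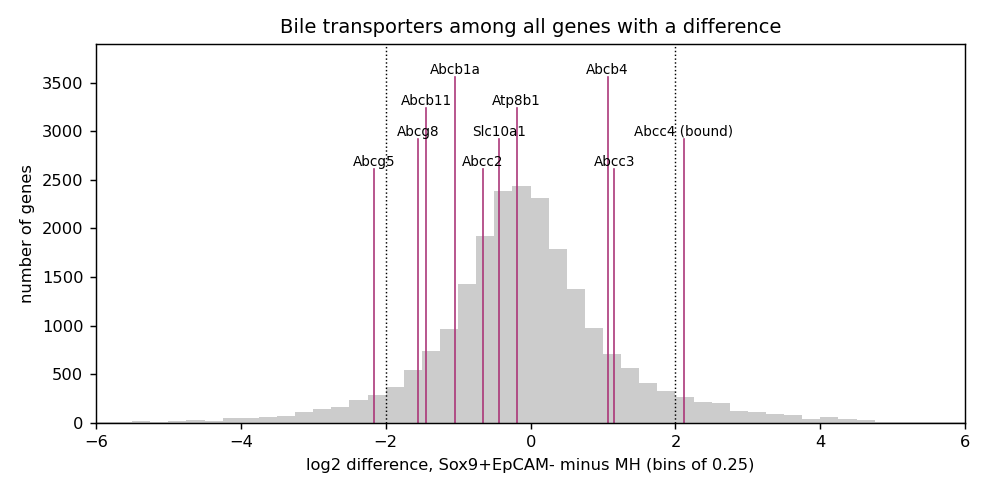
Number of genes (vertical axis) by log2 difference, Sox9+EpCAM- cells minus MHs, in bins of 0.25 between -6 and 6 (grey bars), with a line at each of the 10 bile transporters (Slc10a1 by its brightest probe, Abcc4 by its bound); dotted lines mark 4-fold. Abcg5 at -2.16 and Abcc4 at 2.11 lie just past the dotted lines, and the other 8 lie between -1.55 and 1.15.

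As the RNA is of whole cell samples, fewer cells of a type and less RNA of a gene per cell cannot be told apart for any of these values. Markers of other cells differed between the arrays too. Of 14 cholangiocyte markers, 12 were well above background in MHs and 14 in Sox9+EpCAM- cells, and their summed level, in units of the 75th percentile, was 6.64 and 53.5. A sum weighs each probe by its own brightness, and here Spp1 alone gave 42.3 of the latter; the 13 others summed to 6.29 and 11.2, and the median difference of the list was 0.31. Spp1, osteopontin, had the highest of their differences (6.93) and Aqp1 the lowest (-1.37), while the duct keratins Krt19 and Krt7 were at 0.42 and -0.23. Epcam itself, against which the cells were sorted, was at 139 and 2770, a difference of 3.73, and Sox9 was at least 0.53 higher. Of 14 endothelial markers, 13 and 11 were above background, with a summed level of 10.2 and 3.72, from at most -4.16 for Oit3 to 1.05 for Flt4, and Pecam1 was at -0.75. Of 15 leukocyte markers, 13 were above background on each array, with a median of -1.97, from -6.43 for Clec4f to 3.85 for Cd68. Their summed level was 167 and 92.4, most of it from a probe of Itgam that is not specific to that gene, and 43.1 and 16.1 without it. Of 14 mesenchymal markers, 10 and 12 were above background, with a summed level of 13.2 and 57.0 (2.26 and 43.5 without Dcn, the brightest in MHs, and 12.9 and 36.9 without Col3a1, the brightest in Sox9+EpCAM- cells), from at most -2.95 for Lrat to at least 7.06 for Eln. The median difference of the mesenchymal list was 2.66, with 12 genes above 0 and 1 below. Among its genes above background on both arrays the median was 1.11. Lyve1 of the endothelial and Pdgfrb of the mesenchymal markers were not well above background on either array. Immediate early genes, which respond to handling as well as to injury, were all higher, between 1.67 for Jund and 7.29 for Ier3 (10 genes, median 4.48). Cholangiocytes are known to contain some of the same transporters, Abcc3 among them. The part of any of these cells, or of handling, in the values of the bile transporters was not tested.

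Other transporters of bile formation were read from a list of 22, of which 20 had a difference. Their median was -0.33. Of the 20, 1 was at least 4-fold higher, where 5.98% of all genes were, and 3 were at least 4-fold lower, where 5.96% were. These counts are too few to read against those backgrounds. The lower ones were carriers of the basolateral or ileal type. Slco1b2, an organic anion uptake carrier of hepatocytes, was at 9330 and 1580, a log2 difference of -3.14. Slco2b1, another organic anion carrier, was at 336 and 51.8, a difference of -3.28, and its second probe gave -3.36. Slc10a2, the apical sodium-dependent carrier known from ileum and bile ducts, was at 5070 and 1820, a difference of -2.06. The higher one was Abcc5, an exporter of cyclic nucleotides, at 124 and 1040, a difference of 2.49. Its 4 probes gave 2.96, 2.49, 1.53 and -1.70, so the probes of Abcc5 did not all point one way. Below 4-fold, the organic anion carriers Slco1a4 and Slco1a1 were at -1.69 and 1.45, and the export subunit Slc51b was at -1.47. The bile transporters and the uptake carriers thus included values on both sides of 0.

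Proteins that anchor pumps in the canalicular membrane, deliver them there or seal the canaliculus were on a list of 18, of which 17 had a probe and a difference. Their median was -0.58, with 1 at least 4-fold higher and 0 lower, against 5.98% and 5.96% of all genes. The higher one was Tjp1, a scaffold of the tight junction. It was at 31.7, not well above background, in MHs and 205 in Sox9+EpCAM- cells, at least 2.11 higher on the log2 scale. Pdzk1, a scaffold for membrane transporters, had the lowest value of this list, -1.64, with -1.55 on its second probe. Stx3, a syntaxin of apical membrane fusion, was read by its brightest probe at 503 and 505, a difference of -0.58, which is also the median of the list. Its other probes were not well above background in MHs and gave at least 5.12 (11.7 and 1453) and at least 1.49 (6.74 and 117), so the probes of Stx3 differed widely and the count past 4-fold depends on which is read.

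Regulators of bile transporter genes were on a list of 20, of which 19 had a difference and Vdr was not well above background on either array. The median was -0.23, and 0.06 under quantile normalization. At 4-fold, 0 of them were higher and 1 was lower, against 5.98% and 5.96% of all genes. The lower one was Nr1i3, the xenobiotic receptor CAR, at 23200 and 3480, a log2 difference of -3.32, with -2.64 on its second probe. Nr1h3, the oxysterol receptor LXR alpha, known to induce Abcg5 and Abcg8, was at 11900 and 6200, a difference of -1.52, with -1.68 on its second probe. Nr1h2, the other oxysterol receptor (LXR beta), was at 404 and 639, a difference of 0.08. Cebpa, a transcription factor of mature hepatocytes, was at -1.29. Nr1h4, the bile acid receptor FXR, was at 606 and 1220, a difference of 0.43, and Nr0b2 (SHP), a repressor that FXR induces, was at 2070 and 4420, a difference of 0.51. Hnf4a, a nuclear receptor that hepatocytes express, was at 4990 and 6360, a difference of -0.23. The bile salt pump Abcb11 was therefore lower while FXR and SHP mRNA were not, and of the oxysterol receptors LXR alpha was lower, as the sterol exporters were, and LXR beta was not; neither relation was tested.

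**Figure D3:**
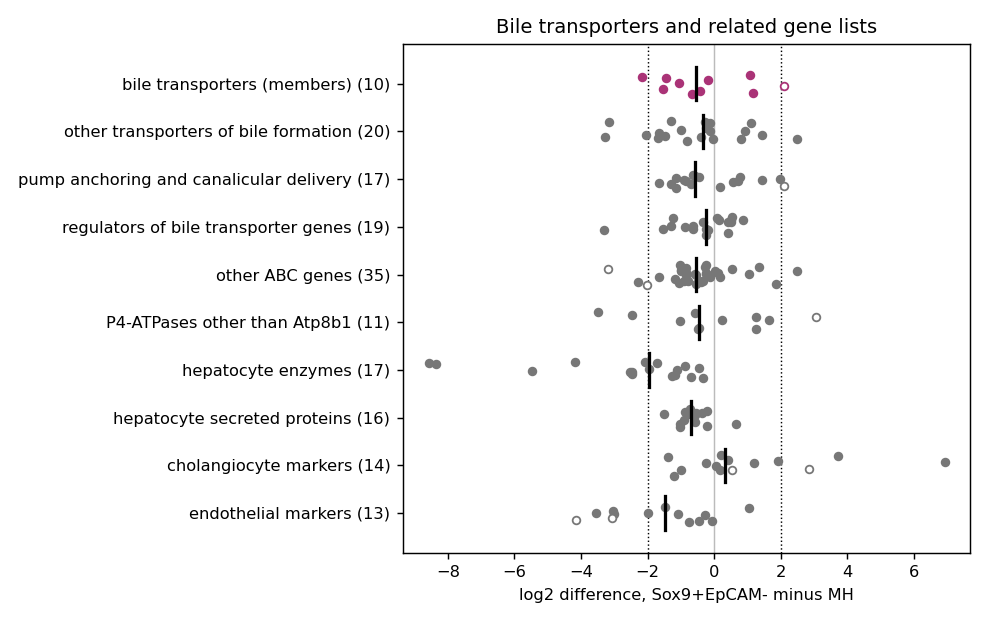
Log2 difference, Sox9+EpCAM- cells minus MHs, of each gene in the bile transporters (top) and in 9 other lists, with the number of genes that have a difference in parentheses. Leukocyte and mesenchymal markers and immediate early genes are not drawn. Filled circles were well above background on both arrays, open circles are bounds, black bars are medians and dotted lines mark 4-fold; the median was -0.55 for the bile transporters, -1.96 for hepatocyte enzymes, -0.69 for hepatocyte secreted proteins and 0.31 for cholangiocyte markers.

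The values of the bile transporters were recomputed under 10 alternative settings each. Of 99 values that could be given, 96 stayed within 1.5-fold of those above. Many of them could not move far. Settings on probe choice, outlier spots, bounds or genes measured on both arrays left a transporter with a single probe unchanged where both arrays measured it. Abcb11, for example, stayed at -1.44 under each of these. Scaling to a median, to Gapdh or by the deposited table shifts all genes nearly alike. The count is therefore no measure of precision. Abcb11 ranged from -1.62 to -1.20, Abcb4 from 0.89 to 1.43, Abcb1a from -1.22 to -0.72, Abcc2 from -0.84 to -0.42, Abcc3 from 0.91 to 1.15, Abcg5 from -2.34 to -1.89, Abcg8 from -1.73 to -1.45 and Atp8b1 from -0.37 to -0.19. Every setting run gave the same direction for 9 of the 10 transporters. The exception was Slc10a1 as read by its repeat-like probe, while its specific probe stayed below 0 under each background correction and scaling.

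**Figure D4:**
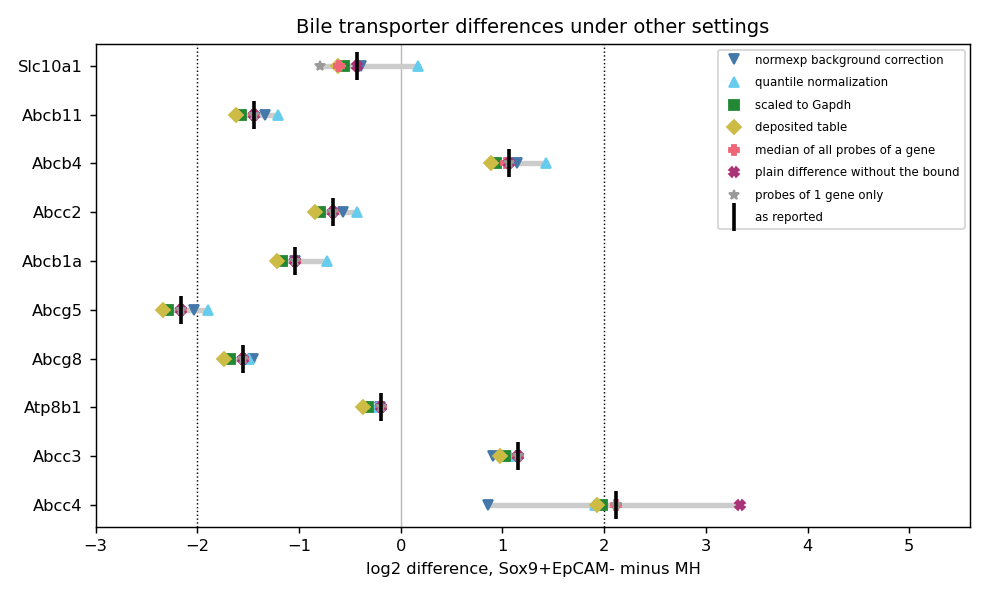
Log2 difference, Sox9+EpCAM- cells minus MHs, of each bile transporter as reported (black bars) and under other settings (symbols), with a grey line over their range and dotted lines at 4-fold. Slc10a1, drawn by its repeat-like probe, crosses 0 under quantile normalization (0.17), its specific probe as reported is the star, Abcc4 runs from 0.86 to 3.34, and the ranges of the other 8 are narrower.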

How the data were processed

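RNA of 1 MH sample and 1 Sox9+EpCAM- sample was read on 1-colour Agilent mouse arrays with probes of 60 bases, which a company labelled and hybridised. The authors deposited the intensity of each spot as Feature Extraction 10.7.3.1 wrote it, after background subtraction and without normalization between arrays, with the software's error of that intensity, the mean and local background intensity and the flags. A deposited table of ratio values holds the same intensities over the median of the array, which was checked against the scanner values (divisors 96.5 and 164). Probe coordinates are those of the design on mm9, and 0 columns of sample values were left unused.

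Of 43020 spots that are not controls, 27523 in MHs and 32158 in Sox9+EpCAM- cells were well above background. Outlier and non-uniform spots were left out. Intensities were scaled to the 75th percentile, spots of a probe were averaged as log2 values (39390 probes), and a gene was read by its probe with the highest mean. A probe dim on 1 array gave a bound, against its own signal there or the lowest one accepted as above background (27.8 and 18.4), whichever was higher. In all, 19232 genes were measured on both arrays, 3613 only in Sox9+EpCAM- cells, 572 only in MHs and 6736 on neither. Differences of at least 4-fold were counted, and 2-fold beside it. Precision is limited by the number of arrays.

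The transporters and the gene lists were chosen with earlier results of these data known. Named were all transporters with every probe, the genes of each list past 4-fold or otherwise its 3 largest differences, the 3 highest and 3 lowest ABC genes and P4-ATPases measured on both arrays, and the extremes and defining markers of the cell type lists; further genes (Abcb1b, Slco1a4, Slco1a1, Slc51b, Nr1h4, Nr0b2, Hnf4a, Tmem30a, Abcg1, Abcg3, Atp11a, Abcg2, Nr1h2, Cyp1a2, Stx3, Itgam, Dcn, Col3a1, Lyve1 and Pdgfrb) were picked with their values known, and some genes are not reported here. Slc51b is Ostb on this array. A probe was called specific when it had no run of 20 bases in common with another gene's probe and its entry listed RefSeq transcripts of at most 1 gene. Promoters came from a RefSeq table (GRCm38.p6; 27025 genes), and motifs were searched on both strands. Alternatives were normexp background correction (limma 3.58.1, R 4.3.3, offset 50), 3 other scalings, the median of all probes, the deposited table, outlier spots kept, differences of dim probes without bounds, genes measured on both arrays alone, and, added after seeing the data, specific probes only, and the specific probe of Slc10a1 under each correction and scaling. Thresholds of 2-fold and 10-fold were tried as well. Python 3.11.15, numpy 2.4.6, pandas 2.3.3 and matplotlib 3.10.9 were used. The procedure was run on simulated data, a copy of the MH array with set changes and noise added. That run checks the computation alone and not the spread between samples.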

Additional observations from a re-analysis of the deposited data

How the results depend on the processing

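The count of bile transporters higher in Sox9+EpCAM- cells by at least 4-fold, 1 as reported, was 0 under normexp background correction, quantile normalization, scaling to Gapdh, the deposited table, the restriction to genes above background on both arrays and a 10-fold threshold, and 3 at 2-fold. The count at least 4-fold lower, also 1, was 0 under quantile normalization and at 10-fold, and 4 at 2-fold. At least 2-fold higher were 3 as reported and 1 under normexp background correction and in the deposited table. The median of the 10 stayed within 1.5-fold under every setting run, between -0.73 and -0.33. Single values that moved by more than that were those of Slc10a1 and Abcc4. Slc10a1 was at 0.17 on its repeat-like probe under quantile normalization (-0.25 on its specific probe), and the cause was not tested. Abcc4 was at 0.86 with normexp, which adds an offset of 50. Without the bound it was at 3.34, where its own MH signal of 11.9 takes the place of the floor of 27.8. Scaling to Gapdh (8 probes) moved the median of all genes by -0.14 and the deposited table by -0.19. Over all 21875 genes with a value, 1309 were at least 4-fold higher and 1304 lower, 50.1% higher. These became 612 and 660 of 21103 with normexp, and 758 and 914 of 19232 genes above background on both arrays. Quantile normalization gave 1230 and 1406 of 21563, and scaling to Gapdh gave 1170 and 1489 of 21690. There were 1130 higher and 1563 lower of 21621 genes in the deposited table. Without bounds there were 1949 and 1416 (57.9% higher) of 23417. The counts of transporters past 4-fold under these settings are too few to read against such backgrounds. No paired analysis was possible because MHs and Sox9+EpCAM- cells have 1 array each, and for the same reason neither the slide as a block nor leaving out a replicate was run. Signal over background limits Abcc4 in MHs, and the spread between mice is not covered by any error given.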

Other observations

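The ABC genes and P4-ATPases other than the bile transporters were also read, as picked by name. Of 42 other genes with names of the ABC family, 35 had a difference, with a median of -0.55. Among the 42, Abca1, Abcb1b, Abcc1, Abcc5, Abcc6 and Abcg2 were also on the list of other transporters of bile formation. At least 4-fold lower were 3 of them, where 5.96% of all genes were, and 1 was at least 4-fold higher, where 5.98% were. These counts are too few to read against those backgrounds. The 3 lower ones are given first. Abca8a, a sterol transporter, was at 5530 in MHs and 1690 in Sox9+EpCAM- cells (log2 difference -2.29). Abcg1, which moves cholesterol to lipoproteins, was at 111 and 4.73, the latter not well above background, a difference of at most -3.18. Abcg3 likewise was at most -2.005. Abcc5 was the only one at least 4-fold higher. The next among genes measured on both arrays were Abcc12 (1.87, and 0.62 on another probe) and Abca7 (1.34). Abcc6 (-1.66, and -1.43 on its other probe) and Abca8b (-1.17) followed Abca8a at the lower end.

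Of 14 P4-ATPases other than Atp8b1, 11 had a difference, with a median of -0.46 and of -0.11 by specific probes. Atp11a, a phosphatidylserine flippase of the plasma membrane, was at 8.10, not well above background, in MHs and 351 in Sox9+EpCAM- cells, at least 3.08 higher on the log2 scale, and at least 1.94 on its second probe. Atp9b (1.66), Atp10d (1.26) and Atp10a (1.25) were the highest of those measured on both arrays. Atp8b5 was at 476 and 63.5, a difference of -3.49. Its other probes gave no difference. They were at 30.3 and 35.5, well above background only in Sox9+EpCAM- cells, and at 6.28 and 4.17, well above it on neither array. Atp8b3 was at -2.45 on its brighter probe and at -0.03 on the other. Atp11b was at -1.02, and at -0.44 on its other probe. The subunit Tmem30a, which most of these flippases need to leave the endoplasmic reticulum, was at 6450 and 3960, a difference of -1.29.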
